A study of Homo sapiens with 24 samples.

Results

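MYOD is a basic helix-loop-helix transcription factor that directs skeletal muscle differentiation. It binds DNA at E-box sequences together with E proteins, at many more places than the genes it activates, and it can bind chromatin that is not yet active. TWIST2, of the same protein family, is known to hold back muscle differentiation. H3K27ac, acetylation of lysine 27 of histone H3, marks active promoters and enhancers, so a MYOD site without it is bound outside marked active chromatin. The regions described here are MYOD sites that appeared after TWIST2 knockdown at places where no H3K27ac peak was found in any library.

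There were 2633 such regions among 88541 merged MYOD regions. They were selected on the peak lists themselves: a MYOD peak in both TWIST2 knockdown (KD) libraries, none in either control library, and no overlap with a peak of any of the 4 H3K27ac libraries. The count and the MYOD difference are therefore a description and were not tested. All libraries came from RD, an established human rhabdomyosarcoma line of the fusion-negative kind. The MYOD, H3K27ac and Ty1 libraries are named RD-1 in the labels and the SMARCA4 libraries RD-2, which the labels do not explain, so SMARCA4 shares at MYOD regions compare differently named sets. Rhabdomyosarcoma cells are muscle-like but arrested in differentiation. Chromatin immunoprecipitation with sequencing (ChIP-seq) was done for MYOD (G1 clone), H3K27ac and SMARCA4 (antibody named BRG1), each in 2 control and 2 TWIST2 KD libraries, and for the Ty1 tag in 2 libraries of cells with 3xTy1-TWIST2. SMARCA4 is an ATPase of the SWI/SNF complexes, which move nucleosomes. The Ty1 libraries have no control or KD genotype in the labels, and neither they nor the SMARCA4 libraries entered the selection. The labels do not give the knockdown method, do not say what the control received and do not say whether replicates were separate cultures, so every spread or p-value measures these libraries only. A place bound in more cells and a place bound more strongly per cell cannot be told apart in such lists.

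The MYOD lists held 44974 and 43381 peaks in control and 52510 and 48003 in KD libraries, each list with 1 fixed width of 159, 179, 213 and 225 bp. Depth is known from the files for SMARCA4 alone, at 36095336 to 46690705 tags. SMARCA4 control replicate 2 stood apart with 25013 peaks against 11835, 12518 and 14676 in the other libraries. The SMARCA4 differences between control and KD libraries are therefore also given without it. Those values rest on control replicate 1 as the only control, and that library was unusual too. Its fragment length was 82 bp against 132, 140 and 144 bp in the others, and it had the most tags but the fewest peaks. All positions are in build hg19 (GRCh37). No sequence or gene annotation of that build was used here, so regions are named by position.

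Gained MYOD regions, those with a peak in both KD and neither control library, numbered 8059, or 9.10% of all merged MYOD regions. Of these, 2633 (32.7%) met no H3K27ac peak, 806 met a peak of 1 H3K27ac library, 2661 of 2 libraries, 413 of 3 and 1546 of all 4. Among the 23993 MYOD regions free of H3K27ac, 11.0% were gained and 4.41% were lost (a peak in both control and neither KD library). The lost regions numbered 1057, which gave 2.49 gained regions for each lost one. Most MYOD regions free of H3K27ac belonged to neither class, since 14653 had a peak in 1 library only and 1648 had a peak in all 4 (constant regions). Leaving out a control library lets a lost region rest on 1 control peak while a gained region still needs both KD peaks. A gained region then has only 1 control list to be absent from, and members numbered 3230 and 3249. The ratio was 0.932 and 0.851 in these 2 runs, so the excess of gained regions was reversed. Leaving out a KD library changes the rule the other way, and the ratio was 4.18 and 5.49. The part of the changed rule in these ratios was not tested. With MYOD lists shortened to equal length the ratio was 1.49.

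**Figure D1:**
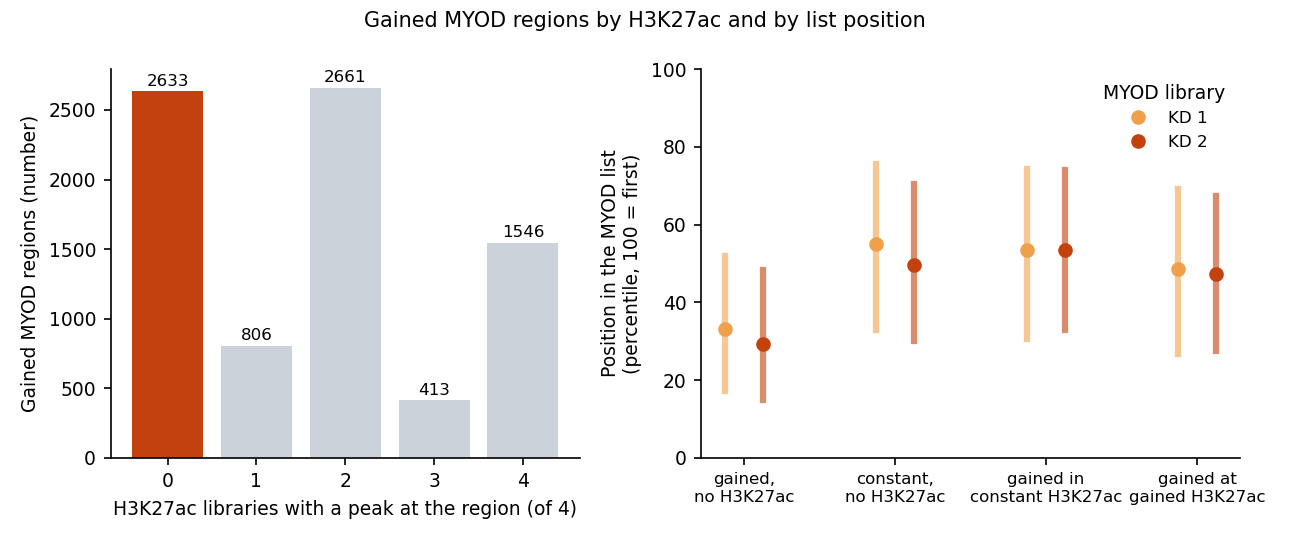
Left, number of gained MYOD regions by how many of the 4 H3K27ac libraries had a peak there, with the 2633 regions without any in red. Right, position of the regions in the MYOD KD lists as a percentile (100 is the first peak, points are medians, bars the middle 50% of the regions), where the gained regions without H3K27ac lie at 33.1 and 29.3 and the 3 other classes drawn between 47.2 and 55.1. All MYOD regions without H3K27ac, which are not drawn, had medians of 26.8 and 24.9.

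The gained regions without H3K27ac sat below gained and constant MYOD regions of other kinds in the MYOD lists, but above MYOD regions without H3K27ac as a whole. These lists have no score, and the order of peaks in the file is the nearest thing to a rank, although the files do not say what it means. Their median percentile was 33.1 in KD replicate 1 and 29.3 in KD replicate 2, where 100 is the first peak of a list. All MYOD regions without H3K27ac had medians of 26.8 and 24.9 in the same lists. Of these 23993 regions, however, 14653 had a peak in 1 library only, whereas the rule required a peak in both KD lists. The part of this requirement in the higher position of the members was not tested. Constant regions without H3K27ac had 55.1 and 49.6, and gained regions inside H3K27ac regions of all 4 libraries had 53.5 and 53.3. Only 28 and 21 members lay in the first 10% of the KD lists. The centres of the KD peaks, which the rule required in 1 merged region, lay a median of 47 bp apart, against 43 bp at constant regions without H3K27ac. Centres lay over 100 bp apart at 499 of the 2633 gained and 301 of the 1648 constant regions. Regions were 225 to 437 bp wide (median 266 bp) and covered 733327 bp in all.

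The selection has edges that a reader may want to see. A control MYOD peak lay within 100 bp, without touching, at 45 members (1.71%) and within 1000 bp at 126 (4.79%), and the median distance to the nearest control MYOD peak was 15646 bp. An H3K27ac peak of some library lay within 100 bp of 68 members and within 1000 bp of 142 (5.39%). On the other side of the edge, 210 of the 5426 gained regions that did meet H3K27ac overlapped it by 100 bp or less, down to 1 bp, while 4773 (88.0%) were covered whole. The 3 members nearest to H3K27ac each lay 3 bp from a peak of KD replicate 2, at chr3:133328904-133329149, chr10:134900442-134900713 and chr15:40615392-40615616. The last of these also had a control MYOD peak 12 bp away. The farthest, at chr2:186008964-186009188, lay 1340233 bp from any H3K27ac peak, stood at percentiles of 9.53 and 33.9 in the KD lists, and had SMARCA4 peaks in both control libraries and in neither KD library. The next, at chr3:104156023-104156254, lay 1144348 bp away, stood high in the KD lists at 92.3 and 64.8, and carried a tagged TWIST2 peak in both Ty1 libraries. The third, at chr5:161799235-161799610, lay 1063939 bp away and had neither TWIST2 nor SMARCA4.

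Tagged TWIST2 was found at fewer of these regions than of constant MYOD regions without H3K27ac. Ty1 replicate 1 had a peak at 753 of the 2633 regions (28.6%) and replicate 2 at 717 (27.2%). Regions that overlapped a TWIST2 region, meaning a merged Ty1 region with a peak in both libraries, numbered 553 (21.0%, 95% Wilson interval 19.5 to 22.6). At constant MYOD regions without H3K27ac both Ty1 libraries had a peak at 43.9%, and 34.0% (31.8 to 36.4) overlapped a TWIST2 region. Gained minus constant regions gave -15.3 points in Ty1 replicate 1 and -16.7 in replicate 2 (SD 0.967, n = 2). Both were negative, and an exact sign-flip test over 2 libraries gave p = 0.5, the smallest it allows.

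Other classes lay closer. The lost regions without H3K27ac had Ty1 peaks at 31.9% and 28.8%, slightly above the members in each library, while 201 of the 1057 overlapped a TWIST2 region, slightly below them. Region widths differed between classes, with medians of 266 bp at members, 208 bp at lost and 288 bp at constant regions without H3K27ac. Their part in these shares was not tested directly. With all MYOD peaks set to 200 bp, the TWIST2 share of members minus constant regions was -13.2 points, against -13.0 at the widths given. Counting only TWIST2 centres within 50 bp of the region centre, which does not use region width, it was -7.80 points. Over all MYOD regions without H3K27ac the Ty1 shares were 28.0% and 26.5%, next to those of the members. Gained regions at gained H3K27ac regions had 36.0% and 36.5%, and gained regions in constant H3K27ac regions had 35.0% and 34.9%. These last classes and all merged MYOD regions (35.8% and 35.1%) were each above the members in both Ty1 libraries.

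**Figure D2:**
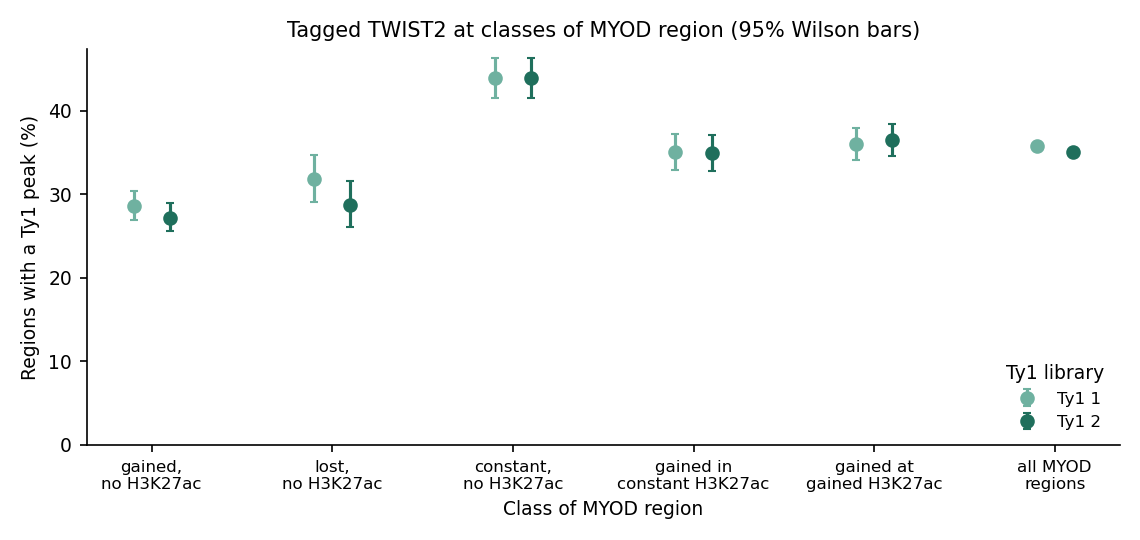
Share of MYOD regions (percent) that overlap a Ty1 peak in each of the 2 libraries of tagged TWIST2, by class of region, with 95% Wilson intervals for counting error. The gained regions without H3K27ac lie at 28.6% and 27.2%, below the constant regions without H3K27ac at 43.9% in both libraries.

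The distance between TWIST2 and MYOD centres, which the overlap that defines presence keeps short, was like that at other MYOD regions. The median distance from the centre of a member to the nearest TWIST2 centre was 48 bp among the 553 members with a TWIST2 region, and 282 of them (51.0%) lay within 50 bp. At constant regions without H3K27ac the median was 43 bp and the share 54.4%, and over all MYOD regions with TWIST2 they were 53 bp and 48.2%. The 553 TWIST2 regions at members were 1.14% of the 48591 TWIST2 regions. TWIST2 shares varied little with list position. In 4 equal groups of members, from the lowest to the highest mean KD percentile, they were 19.4%, 21.1%, 21.0% and 22.5%.

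SMARCA4 was found at more of these regions in each KD than in either control library, in a comparison too small to pass a test. Of the 2633 regions, 86 had a SMARCA4 peak in control replicate 1 (3.27%, Wilson interval 2.65 to 4.02) and 186 in control replicate 2 (7.06%, 6.15 to 8.11). In KD replicate 1 there were 207 (7.86%, 6.89 to 8.95) and in KD replicate 2 there were 271 (10.3%, 9.19 to 11.5). Both KD libraries were above both controls, narrowly so for control replicate 2, whose list was the longest. The means were 5.17% ± 2.69 in control and 9.08% ± 1.72 in KD libraries (SD, n = 2 each), a difference of 3.91 points. The exact two-sided permutation test over libraries gave p = 0.333, the smallest that 2 against 2 libraries allow. Without SMARCA4 control replicate 2 the difference was 5.81 points, and without control replicate 1 it was 2.01. When any 1 MYOD library was left out of the choice of members, the difference was 1.55 to 3.08 points and the KD libraries were no longer both above both controls (exact permutation p = 0.667 in each case).

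MYOD regions as a whole went the opposite way. Over all merged MYOD regions a SMARCA4 peak was present at 10.8% and 21.5% in control and at 9.89% and 10.5% in KD libraries. Divided by this share in the same library, the share at the gained regions without H3K27ac was 0.302 and 0.329 in the control and 0.795 and 0.980 in the KD libraries. On this scale the groups lay well apart, by 0.571 on average (exact permutation p = 0.333) and by 0.585 without control replicate 2. They also lay apart in each choice of members without 1 MYOD library. With the 11835 highest-scoring SMARCA4 peaks taken from each library, members had a peak in 86 and 21 cases in control and in 195 and 216 in KD.

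The classes without H3K27ac that were not gained had lower SMARCA4 shares in KD libraries. At constant regions without H3K27ac SMARCA4 peaks were present at 20.6% and 35.3% in control and at 16.4% and 18.6% in KD libraries. At lost regions without H3K27ac the shares were 7.57% and 15.9% in control and 4.07% and 6.24% in KD. With equal SMARCA4 lists the constant regions no longer separated the groups, at 20.6% and 16.3% in control and 15.7% and 16.6% in KD libraries, and the lost regions had 7.57% and 4.35% against 3.88% and 4.26%. Without control replicate 2 the KD minus control difference was -3.06 points at constant regions (-10.4 with it) and -2.41 at lost regions (-6.58 with it). Relative to all MYOD regions, lost regions had 0.700 and 0.741 in control and 0.411 and 0.594 in KD libraries, so the order of the groups was reversed there. Constant regions had 1.90 and 1.65 against 1.66 and 1.77, with no separation of the groups. In every one of the 4 SMARCA4 libraries the gained regions had fewer SMARCA4 peaks than the constant regions, at -15.6 points on average (exact sign-flip p = 0.125, the smallest that 4 libraries allow) and -11.4 points without control replicate 2. Members minus constant regions gave -17.3 and -28.3 points in the control and -8.52 and -8.34 points in the KD libraries.

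Gained MYOD regions that did carry H3K27ac give the scale of this difference. Those at gained H3K27ac regions had SMARCA4 at 1.83% and 4.37% in control and at 9.19% and 12.5% in KD libraries, a difference of 7.76 points, larger than that of the regions without H3K27ac. Those inside constant H3K27ac regions had 5.84% and 15.1% in control and 9.97% and 10.1% in KD libraries, where the groups overlapped. Relative to all MYOD regions, however, this class had 0.540 and 0.703 in control and 1.01 and 0.959 in KD libraries, and with equal SMARCA4 lists 5.84% and 6.72% against 9.20% and 8.87%. On both scales the groups lay apart in the same order as at the gained regions without H3K27ac. Without control replicate 2 the differences were 4.18 points in constant and 9.03 points at gained H3K27ac regions. Whether these classes differ was not tested.

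**Figure D3:**
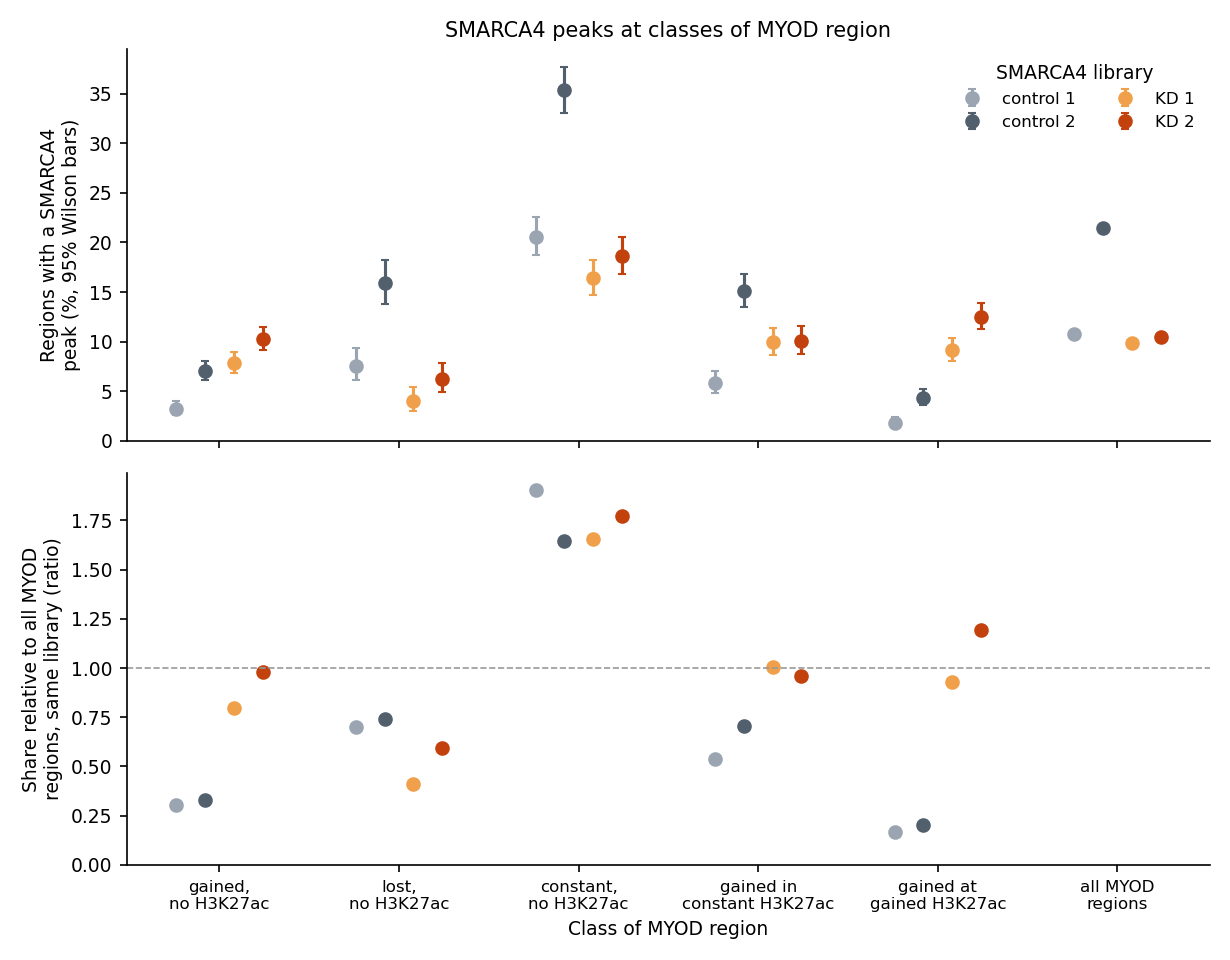
Top, share of MYOD regions (percent, with 95% Wilson intervals for counting error) that overlap a SMARCA4 peak in each of 4 libraries, by class of region. Bottom, the same share divided by that of all MYOD regions in the same library, where gained regions without H3K27ac lie at 0.302 and 0.329 in control and 0.795 and 0.980 in KD libraries, and lost regions lie in the opposite order.

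Few members had SMARCA4 peaks in several libraries. A peak in at least 1 of the 4 libraries was seen at 587 members (22.3%), close to the 21.8% of all MYOD regions without H3K27ac. Of the members only 34 (1.29%) had one in both KD and neither control library. This pattern was seen at 0.901% of all MYOD regions and 0.621% of those without H3K27ac. It was seen at 1.76% of constant and 0.189% of lost regions without H3K27ac. Gained regions at gained H3K27ac regions had it at 2.04%, and those in constant H3K27ac regions at 1.10%, so it was not particular to the members. The opposite pattern, both control and neither KD library, was seen at 18 members (0.684%), against 3.26% of all MYOD regions and 1.49% of those without H3K27ac. Only 1 member had SMARCA4 in all 4 libraries, which was rare at all MYOD regions (0.541%) and at those without H3K27ac (0.254%). The peaks present ranked low among the authors' scores, with a median percentile of the HOMER score of 21.8 and 23.9 in the control lists and 43.3 and 35.3 in the KD lists. In the KD lists this was no lower than at lost regions without H3K27ac (43.3 and 35.3), and all MYOD regions without H3K27ac had 33.5 and 35.5 in control and 43.3 and 43.2 in KD lists. All MYOD regions with a SMARCA4 peak had medians of 52.7 to 57.7 in the same 4 lists.

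Within the members, SMARCA4 was more frequent at those higher in the MYOD KD lists in both KD libraries and, by less, in control replicate 2. Other classes were not split in this way. From the lowest to the highest of the same 4 groups of members, SMARCA4 KD replicate 1 had peaks at 4.55%, 5.78%, 9.88% and 11.2%, and KD replicate 2 at 7.74%, 8.66%, 12.5% and 12.3%. Control replicate 1 had 4.55%, 2.58%, 2.58% and 3.34%, and control replicate 2 had 6.07%, 6.23%, 8.05% and 7.90%. In the lowest group KD replicate 1 thus equalled control replicate 1, whereas in the highest group both KD libraries stood above both controls. SMARCA4 was also more frequent at members with TWIST2 than at those without. Members with a TWIST2 region had SMARCA4 at 5.24% and 12.7% in control and 11.9% and 13.7% in KD libraries, those without at 2.74% and 5.58% in control and 6.78% and 9.38% in KD. All 4 libraries had the higher share where TWIST2 lay, and the same order held over all MYOD regions without H3K27ac, where the shares were 8.83% against 4.92% in control replicate 1 and 9.06% against 4.70% in KD replicate 1. Neither TWIST2 nor SMARCA4 was found at 1678 members (63.7%), near the 65.3% of all MYOD regions without H3K27ac, and at 31.5% of the constant ones.

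**Figure D4:**
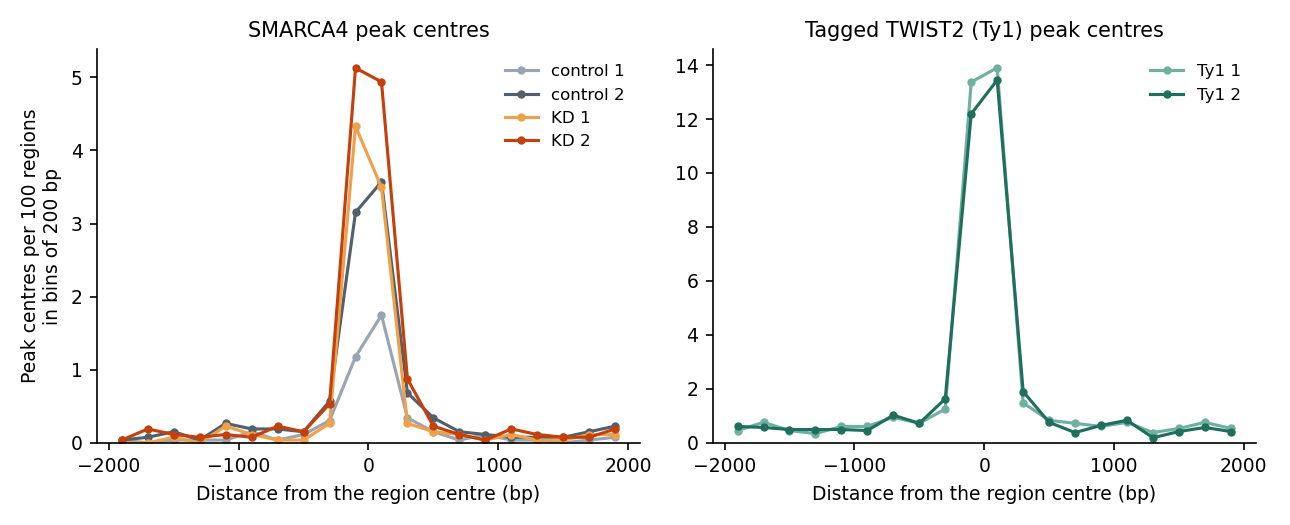
Peak centres per 100 gained MYOD regions without H3K27ac, in bins of 200 bp by distance from the region centre (bp), for SMARCA4 (left) and tagged TWIST2 (right), 1 line per library. Both antibodies peak in the 2 bins around the centre, where SMARCA4 KD replicate 2 has 5.13 and 4.94 centres per 100 regions and control replicate 1 has 1.18 and 1.75.

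The SMARCA4 and TWIST2 peaks were local. SMARCA4 centres in the 2 bins of 200 bp next to the region centre numbered 114 and 92 in KD replicate 1 and 135 and 130 in KD replicate 2, and 31 and 46 in control replicate 1 and 83 and 94 in control replicate 2. In the outermost bins, 1900 bp from the centre, no library had more than 6. Tagged TWIST2 had 352 and 366 centres in the central bins of Ty1 replicate 1 and 12 and 14 in the outermost.

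Although no H3K27ac peak touched these regions, more of them had the mark nearby in KD than in control libraries. The same held over all MYOD regions. An H3K27ac peak was present within 5 kb of 9.34% and 8.36% of the members in the control libraries and of 14.9% and 14.1% in the KD libraries. The means were 8.85% ± 0.698 and 14.5% ± 0.591 (SD, n = 2 each), 5.66 points apart, and the groups did not overlap (exact permutation test over libraries, two-sided p = 0.333). The selection also used these H3K27ac lists, alike and for direct overlap only. The difference thus describes the chosen regions and is no independent test. Over all MYOD regions without H3K27ac the difference within 5 kb was 4.54 points, and over all merged MYOD regions it was 9.96 points. Within 20 kb the shares at members were 42.1% and 40.1% in control and 54.5% and 53.5% in KD. That difference was 12.9 points, against 9.74 over all MYOD regions without H3K27ac and 8.41 over all merged MYOD regions. The KD libraries had more H3K27ac peaks altogether, 48022 and 46822 against 36679 and 34932. When the 34932 widest peaks of each library were used, the shares within 5 kb were 8.55% and 8.36% in control and 9.53% and 9.04% in KD, 0.836 points apart. Both KD libraries were still above both controls, by far less.

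The same comparison at other MYOD regions without H3K27ac gave smaller differences. At constant regions 12.3% and 9.34% had a peak within 5 kb in control and 14.7% and 13.7% in KD libraries, 3.37 points apart. Lost regions had 18.6% and 14.9% in control and 21.5% and 19.9% in KD. With equal H3K27ac lists both classes turned: constant regions had 11.2% and 9.34% in control against 7.95% and 8.01% in KD, and lost regions 17.0% and 14.9% against 13.2% and 13.0%. Relative to all MYOD regions without H3K27ac in the same library, the share at gained regions was 0.690 and 0.692 in control and 0.841 and 0.832 in KD. For lost regions this ratio moved the other way, from 1.38 and 1.24 to 1.21 and 1.17, and for constant regions the libraries overlapped. In the control libraries gained regions thus had fewer neighbouring H3K27ac peaks than lost or constant regions, and in KD libraries they had about as many as constant regions. Gained minus lost regions gave -7.05 points on average over the 4 libraries, negative in each (exact sign-flip p = 0.125, the smallest possible). The choice of both classes used these H3K27ac lists, so this value too is a description.

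**Figure D5:**
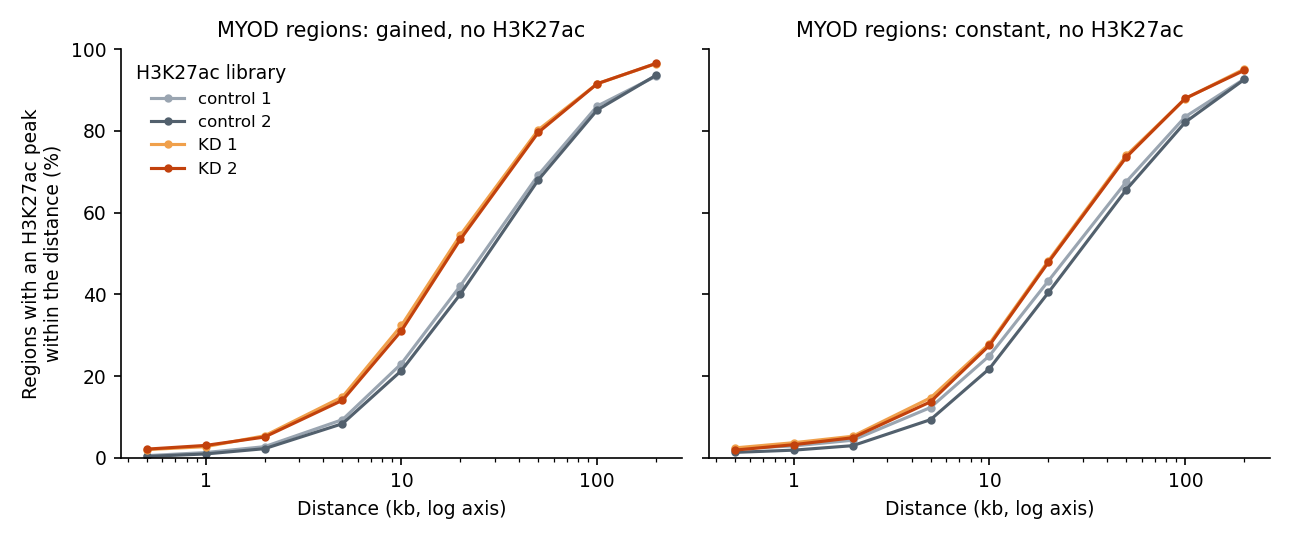
Share of MYOD regions (percent) with an H3K27ac peak within a given distance (kb, log axis), 1 line per H3K27ac library, for gained (left) and constant (right) MYOD regions without H3K27ac. At 20 kb the gained regions reach 54.5% and 53.5% in KD against 42.1% and 40.1% in control libraries, and the constant regions 48.2% and 47.9% against 43.3% and 40.5%.

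The nearest H3K27ac region, of any library, lay at a median of 14329 bp from a member (6155 to 33278 bp for the middle 50%), against 15291.5 bp for constant and 10532 bp for lost regions without H3K27ac. It was a gained H3K27ac region (both KD, neither control) for 581 members (22.1%) and a lost one for 90 (3.42%). Over all MYOD regions without H3K27ac these shares were 19.7% and 4.96%, near those of the members. At lost MYOD regions they were 16.0% and 6.72%, and at constant ones 17.3% and 6.31%. Gained and lost regions made up 19.8% and 4.21% of all merged H3K27ac regions. For 1118 members (42.5%) the nearest region was one with peaks in all 4 libraries, against 43.6% of all MYOD regions without H3K27ac. Many members had no MYOD neighbour: 48.7% had no other MYOD region within 10 kb, against 34.4% of lost and 42.9% of constant regions without H3K27ac. Another gained MYOD region lay within 10 kb of 246 members (9.34%), a lost one within 10 kb of 121 (4.60%) and a constant one of 340 (12.9%). At lost regions without H3K27ac the shares with a gained, lost or constant neighbour were 9.93%, 6.81% and 20.2%. At constant regions without H3K27ac they were 6.67%, 5.22% and 16.2%. Members thus had a gained neighbour about as often as lost regions did.

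The 8 members highest in both KD lists show how mixed the class is. The first, at chr7:105439461-105439731, stood at percentiles of 96.9 and 95.6, had no Ty1 or SMARCA4 peak, and lay 22651 bp from the nearest control MYOD peak. Its nearest H3K27ac region was a gained one, 15508 bp away in KD replicate 1 and 15961 bp in KD replicate 2, with the nearest control peaks at 22879 and 22856 bp. The second, at chr7:93762782-93763141, lay 2607 and 2606 bp from H3K27ac peaks of the KD libraries but 38803 and 38875 bp from those of the controls, and had a SMARCA4 peak in 1 control and 1 KD library. The third, at chr10:112172541-112172777, showed the reverse arrangement, with H3K27ac at 1630 and 1517 bp in the control and at 12436 and 12417 bp in the KD libraries. The fifth, at chr8:33035878-33036159, was far from H3K27ac in all libraries (197777 bp or more) and had SMARCA4 in KD replicate 1 alone. Of the 8, only the region at chr10:126277353-126277577 had a TWIST2 region, centred 23.5 bp away, with a SMARCA4 peak in control replicate 2. The others, at chr10:111188973-111189230, chr1:144008190-144008477 and chr2:232684101-232684328, had neither factor and lay 37122, 8959 and 31663 bp from H3K27ac.

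Both factors together, a TWIST2 region and SMARCA4 in at least 1 library, were found at 185 members (7.03%), near the 6.80% of all MYOD regions without H3K27ac, and at 21.4% of the constant ones. The member with the most, at chr5:58858785-58859082, had SMARCA4 in all 4 libraries and a TWIST2 centre 60 bp away, and lay 250288 bp from the nearest H3K27ac peak. It stood at percentiles of 66.4 and 20.2 in the KD lists and 205403 bp from a control MYOD peak. Those at chr12:132488272-132488617, chr10:116066394-116066682 and chr15:99152832-99153138 each had SMARCA4 in both KD libraries and control replicate 2. The regions at chr1:214434987-214435215 and chr11:128463257-128463496 had it in both controls and in 1 KD library. At these 6 regions, chosen for the number of SMARCA4 libraries, the mean KD percentile was 40.7 to 65.9.

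Members were spread over many windows of 1 Mb, often with others in the same window. This spread was not compared with that of other MYOD regions. Of the windows that held any, 767 held 1 member, 351 held 2, 176 held 3 and 99 held 4, and only 2 held 8. The first of these, chr2:217000001-218000000, held 15 gained and 4 lost MYOD regions, 6 gained and 2 lost H3K27ac regions and 41 TWIST2 regions, none of which lay at a member. MYOD peaks in it numbered 29 and 36 in control and 51 and 47 in KD libraries, and H3K27ac peaks 30 and 28 against 39 and 37. The other, chr8:10000001-11000000, held 15 gained and 5 lost MYOD regions and 24 TWIST2 regions, 2 of its members with one. Its MYOD peaks numbered 23 and 27 in control and 40 and 31 in KD libraries, whereas SMARCA4 peaks were 11 and 13 against 10 and 14. Of 4 windows with 7 members each, the first in chromosome order, chr1:22000001-23000000, held 11 gained and 2 lost MYOD regions, with 19 MYOD peaks in each control and 28 in each KD library. These windows were chosen by their member counts, with the tie settled by position.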

How the data were processed

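ChIP-seq peak lists of 14 of the 24 samples were used, 1 list per library. The other samples are inputs and were not used here. Per the submitters' processing notes, the tools were HOMER 4.4, bedtools 2.29.2, SAMtools 0.1.19 and Bowtie2 2.3.4.3, and the build hg19 (also listed as GRCh37). The deposited H3K27ac, MYOD and Ty1 lists hold positions only, so their depth and caller settings are not given in the sources used here. Per the file headers, SMARCA4 peaks were called by HOMER with a false discovery rate threshold of 0.001 and a minimum of 4-fold over input, and the deposited HOMER score per peak is the authors' value, used only to rank peaks within a list.

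The 4 MYOD lists were merged where peaks overlapped by at least 1 bp, using the numbered chromosomes, X and Y. Presence in a library means that 1 of its peaks overlapped the region. H3K27ac and Ty1 lists were merged the same way. Shares carry 95% Wilson intervals, which cover counting error only, and groups were compared by exact two-sided permutation tests over libraries at a threshold of 0.05, which 2 against 2 libraries cannot reach. Positions are printed 1-based. The members, classes, tests and most alternatives were chosen with earlier results of these data known, and the share relative to all MYOD regions and the SMARCA4 and H3K27ac alternatives at comparison classes were added after the files were seen. Named regions were the 8 members highest in the KD lists, 6 with TWIST2 and most SMARCA4 libraries, the 3 nearest to and 3 farthest from H3K27ac, and the 3 windows of 1 Mb with most members (ties by position). The planned E-box and gene analyses are not analysed here, for want of an hg19 sequence or annotation. The class and overlap code was tested on simulated data of 20000 regions, where 100% of the simulated members were recovered. The simulated sites lay far apart, with shifts between libraries much smaller than the peak widths. This checks the code alone, and regions near the edges of the rule were not simulated. Python 3.11.15, numpy 2.4.6, pandas 2.3.3 and matplotlib 3.10.9 were used.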

Additional observations from a re-analysis of the deposited data

Results flagged for a closer look

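SMARCA4 shares differed between control and KD in opposite directions at gained and at constant MYOD regions without H3K27ac. Both KD libraries were above both controls at gained regions (7.86% and 10.3% against 3.27% and 7.06%) and below both at constant regions (16.4% and 18.6% against 20.6% and 35.3%). The KD minus control differences of these 2 classes lay 14.3 percentage points apart (exact permutation p = 0.333 over libraries, the smallest possible). The same opposition separated gained from lost regions without H3K27ac, where the KD minus control differences lay 10.5 points apart (exact permutation p = 0.333). Without SMARCA4 control replicate 2 the KD minus control differences lay 8.88 and 8.22 points apart, and with equal SMARCA4 lists 8.11 and 7.67 points. With the 11835 highest-scoring SMARCA4 peaks of each library the constant regions had 20.6% and 16.3% in control and 15.7% and 16.6% in KD libraries, so the groups overlapped there. Relative to all MYOD regions the gained and lost regions still lay in opposite order, and the constant regions did not separate the groups.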

How the results depend on the processing

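With 2 libraries per group no comparison could pass the threshold under any setting, so only direction and size can be compared. The higher SMARCA4 share at members in KD libraries, also relative to all MYOD regions, its lower level than at constant regions, and the nearer H3K27ac in KD kept their direction in every alternative run. The separation of the KD from the control libraries did not keep: for the SMARCA4 share it was lost when any 1 MYOD library was left out (exact permutation p = 0.667), though not for the relative share. The SMARCA4 difference was smallest, at 1.68 and 1.55 points, when KD replicate 1 or 2 of MYOD was left out, which admits regions seen in 1 KD library only. Leaving out 1 MYOD library at a time, the number of members was 3230 to 8313 (6755 without KD replicate 1) and the ratio of gained to lost regions 0.851 to 5.49 (0.932 without control replicate 1 and 4.18 without KD replicate 1). The TWIST2 share was 16.9% to 23.4% (18.0% and 22.9% in between), and its difference from constant regions -15.3 to -10.0 points (-15.0 and -11.2 in between). With the first 50% of each MYOD list there were 803 members, 4.32 for each lost region, with a TWIST2 share of 29.3%, -11.5 points from constant regions. With equal MYOD lists the ratio was 1.49. Leaving out 1 library changes the rule for both gained and lost regions, and its part in the changes of the ratio was not tested. Counting a peak in either Ty1 list gave 35.1% and -19.2 points, and TWIST2 centres within 50 bp gave 10.7% and -7.80 points. A merge distance of 500 bp, MYOD peaks of 200 bp and exclusion of H3K27ac within 1000 bp left the members at 2491 to 2673. At comparison classes, in alternatives chosen after seeing the data, equal H3K27ac lists turned the difference within 5 kb to -2.31 points at constant and -2.89 at lost regions. The SMARCA4 difference at gained regions in constant H3K27ac turned from -0.44 to 2.75 points with equal SMARCA4 lists and to 4.18 without control replicate 2.

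The labels do not say that equal replicate numbers share a culture or day, and deviations of same-numbered control and KD libraries did not go together (correlations of -0.00012 for MYOD, 0.0053 for H3K27ac and -0.031 for SMARCA4). With the replicate number as a block, the differences were 3.91 points for SMARCA4, 0.571 for its relative share and 5.66 points for H3K27ac within 5 kb, each with an exact sign-flip p = 0.5, the smallest that 2 pairs allow. The H3K27ac value stays a description, since the selection used the same H3K27ac lists. The E-box alternatives were not run. The unknown depth of the MYOD, H3K27ac and Ty1 libraries limits every count of gained and lost regions, since a missing peak may lie just under a threshold.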

Other observations

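The share of gained regions varied between chromosomes, which was not tested. The chromosomes named for this share lay at its low and high ends. Those named for gained beside lost regions are examples and not all extremes. Gained regions made up 7.81% of the MYOD regions without H3K27ac on chromosome 19 (67 of 838 on chromosome 20), and 13.2% on chromosome 15 and 13.8% on chromosome 13 (27 of 196), against 11.0% over all chromosomes. On chromosome 19, 55 gained regions stood beside 56 lost ones, whereas on chromosome 3 there were 150 beside 46 and on chromosome 18 there were 66 beside 17. On chromosome 21, 31 gained regions stood beside 6 lost ones, and these small counts give no firm ratio. None lay on chromosome Y.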
